A study of Mus musculus with 7 samples.

Results

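The genes described here encode the subunits of the proteasome, its activators, an inhibitor and its assembly chaperones, in retinal pigment epithelium (RPE) of aged mice. They were taken by symbol: every gene of the count table whose name begins with Psma, Psmb, Psmc, Psmd, Psme, Psmf or Psmg followed by a digit. The rule found 50 genes among 21861, of which 19 are named as core subunits (Psma, Psmb), 21 as parts of the regulatory cap (Psmc, Psmd) and 10 as activators, inhibitor or chaperones (Psme, Psmf, Psmg). Psmc3ip, a meiotic recombination factor named for its binding to Psmc3, and Psme2b, a copy of Psme2 whose reads may be shared with it, entered by name alone. After a filter on low counts 49 of the 50 genes, and 15075 genes in all, were tested; Psmb11 was not. Libraries were prepared from polyadenylated RNA of aged mouse RPE collected 12 weeks after treatment with adeno-associated virus (AAV), a gene delivery vector, carrying either green fluorescent protein (AAV-GFP, labelled Old-GFP, 3 libraries) or GSTA4, a glutathione transferase that detoxifies lipid aldehydes (AAV-GSTA4, labelled Old-GSTA4, 4 libraries). Both groups are thus old and virus-treated, with no young and no untreated group. The labels give no strain, sex, age in months, dose, route or promoter, and do not say that each library came from a separate animal, so that p-values measure only the spread between these libraries.

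The RPE is the pigmented cell layer behind the photoreceptors, which takes up and degrades shed outer segments and is under lifelong oxidative load. The proteasome is the chamber in which cells break down ubiquitin-tagged and oxidised proteins: outer rings of alpha subunits gate it, inner rings of beta subunits carry the peptidase sites, and a cap with ATPase and non-ATPase subunits binds, unfolds and feeds in the tagged substrate. In cells that receive interferon, the inducible beta subunits Psmb8, Psmb9 and Psmb10 replace Psmb5, Psmb6 and Psmb7 to form the immunoproteasome, which trims peptides for presentation by major histocompatibility complex (MHC) class I. When proteasome activity falls short, the transcription factor encoded by Nfe2l1 raises subunit genes as a group.

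Total counts ran from 15329181 to 28998964 per library. The human GSTA4 transgene had 3, 1 and 1 counts in the AAV-GFP libraries and 4209, 5239, 45 and 1184 in the AAV-GSTA4 libraries 1 to 4, so that AAV-GSTA4 replicate 3 carried little of it. The row of the GFP transgene (d2EGFP) had 99, 3970 and 2361 counts in the AAV-GFP libraries and 163, 64, 7 and 26 in the AAV-GSTA4 libraries, so that AAV-GFP replicate 1 lay below AAV-GSTA4 replicate 1. AAV-GFP replicate 3 differed most from the rest, with a mean correlation to them of 0.838 where the other libraries had 0.910 to 0.926. Its summed RPE markers were at 8534 CPM (counts in each 1000000, scaled) against 22900 to 41680, and its summed rod markers were at 35580 CPM against 6456 to 21330. All 8 RPE markers were present in each library. Of these 6 were higher and 2 lower in AAV-GSTA4, and 1, Lrat, was higher without overlap (6.44% of all genes higher). They summed to 28960, 23050 and 8534 CPM in AAV-GFP and 22900 to 41680 CPM in AAV-GSTA4. Rod photoreceptor markers were lower in AAV-GSTA4 in 8 of 8 genes and without overlap in 7 (5.61% of all genes lower). Their summed levels were 12730, 21330 and 35580 CPM in AAV-GFP and 6456 to 12020 CPM in AAV-GSTA4. AAV-GSTA4 replicate 2 had summed lens fibre markers of 5514 CPM, against 50.7 to 354 CPM in the other libraries. These are bulk libraries, in which fewer cells of a type and less RNA per cell cannot be told apart.

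No proteasome gene passed an adjusted p of 0.05 between AAV-GSTA4 and AAV-GFP, by the quasi-likelihood test of edgeR, with Benjamini-Hochberg adjustment over all 15075 genes. The share of all genes that passed was 0%, and the smallest adjusted p, among all genes and among the proteasome genes, was 0.363. DESeq2 called 2% of the genes it tested and limma-voom with quality weights 0.968%, and neither called a proteasome gene. At an unadjusted p under 0.05, which 11.9% of all genes reached, edgeR gave 1 proteasome gene lower in AAV-GSTA4, Psmb8 (6.63% of all genes were lower at that p), and 1 higher, Psmd1 (5.27% of all genes were higher). Groups did not overlap for 4 of the 49 genes (8.16%), against 12% of all genes: Psmb8 lower (5.61% of all genes lower) and Psmd1, Psmd2 and Psmd4 higher (6.44% of all genes higher). These shares lie below the background.

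The sign of the fold change was unevenly split over the roles. In the cap, 18 of 21 genes had a log2 fold change above 0 and the median was 0.28; in the core, 10 of 18 did and the median was 0.05; among the others, 3 of 10 did and the median was -0.11. Over all genes 44.6% were above 0 and the median was -0.07. The direction depended on the scaling: 31 of 49 genes lay above 0 as fitted, and 14 of 49 with library totals and no scaling, where the median of all genes was -0.37 and that of the cap -0.01. Within these parts, 11 of 11 non-ATPase cap subunits, 7 of 7 beta subunits Psmb1 to Psmb7 and 5 of 6 ATPases lay above 0, with medians of 0.30, 0.16 and 0.17, while alpha subunits Psma1 to Psma7 split 3 above to 4 below, with a median of -0.02. The medians are small beside the errors of single genes, whose median SE was 0.29, and members of 1 complex vary together across libraries, so the counts carry no test.

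**Figure D1:**
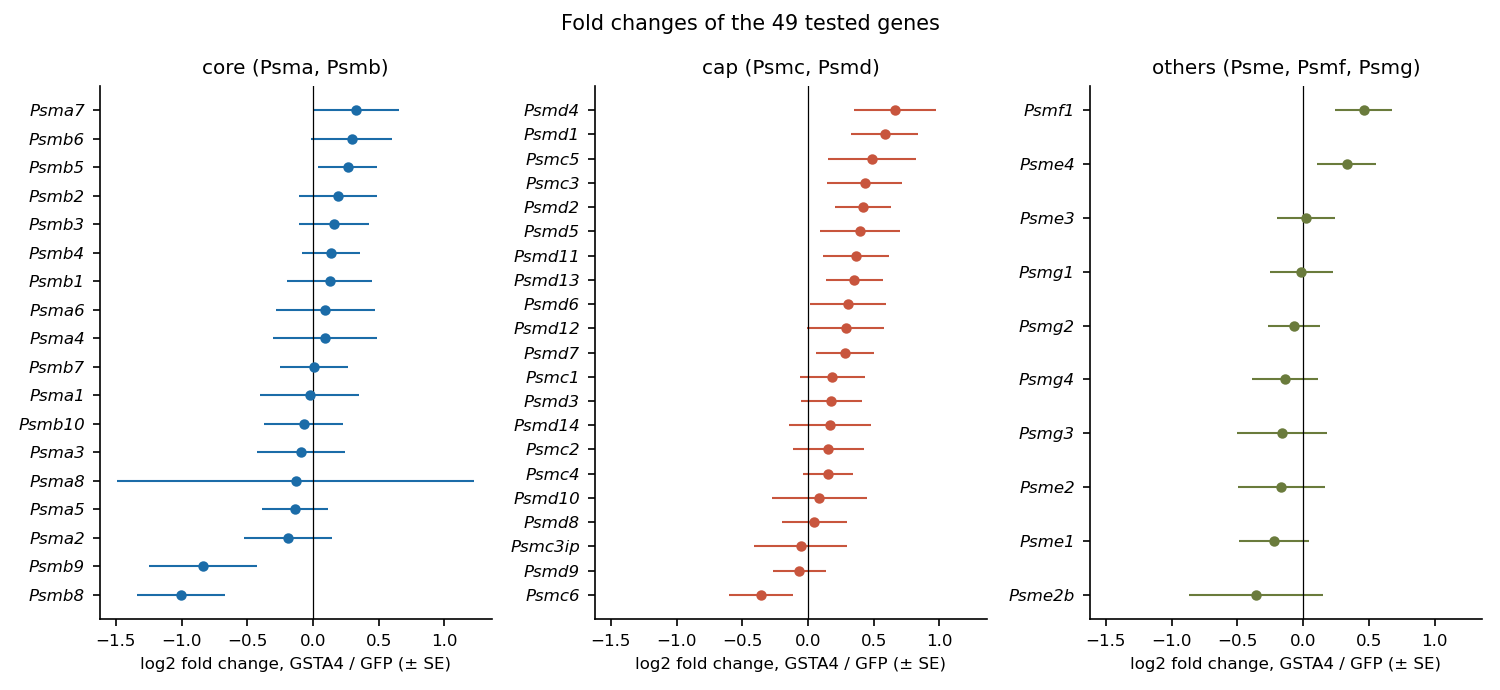
Log2 fold change of each of the 49 tested genes, AAV-GSTA4 over AAV-GFP (x axis; points are edgeR estimates, lines ± 1 SE), by part, in order of size. Psmb8 (-1.01) and Psmb9 (-0.84) lie at the low end of the core, and Psmd4 (0.66) and Psmd1 (0.58) at the high end of the cap.

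The estimates of the inducible catalytic subunits were not alike, though a difference between these genes was not tested. Psmb8, the inducible counterpart of the chymotrypsin-like subunit Psmb5, was at 34.7, 41.0 and 29.8 CPM in replicates 1 to 3 of AAV-GFP, and 13.1, 17.1, 11.1 and 28.6 CPM were measured in replicates 1 to 4 of AAV-GSTA4. The groups did not overlap, but replicate 4 of AAV-GSTA4 came within about 1 CPM of the lowest AAV-GFP library, and the means were 35.2 ± 5.59 (SD, n = 3) and 17.5 ± 7.85 CPM (SD, n = 4). The log2 fold change of Psmb8 was -1.01 ± 0.33 (SE), at an unadjusted p of 0.0136 and an adjusted p of 0.363 by edgeR, so the difference did not pass the threshold. Psmb9, which takes the place of the caspase-like subunit Psmb6, was at 12.2, 14.6 and 8.79 CPM in AAV-GFP and at 5.11, 8.64, 3.35 and 9.41 CPM in AAV-GSTA4. For this gene the groups overlapped, since AAV-GFP replicate 3 lay below AAV-GSTA4 replicate 4, and the log2 fold change was -0.84 ± 0.41 (edgeR adjusted p = 0.449). Psmb10, the inducible counterpart of the trypsin-like subunit Psmb7, was at 27.1, 29.7 and 14.9 CPM in AAV-GFP and 18.9, 18.3, 25.6 and 28.3 CPM in AAV-GSTA4, with a log2 fold change of -0.07 ± 0.30. Here the groups overlapped over most of their range, and the lowest library of all was AAV-GFP replicate 3.

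The constitutive counterparts overlapped throughout. Psmb5 was at 99.1, 109 and 72.7 CPM in AAV-GFP and 130.3, 96.7, 121 and 101 CPM in AAV-GSTA4, a log2 fold change of 0.26 ± 0.22 (edgeR adjusted p = 0.657). Psmb6 was at 460.2, 420.5 and 213 CPM in AAV-GFP and 345, 460.5, 481 and 501 CPM in AAV-GSTA4 (0.29 ± 0.31, edgeR adjusted p = 0.728). Psmb7 was at 45.3, 52.6 and 28.1 CPM in AAV-GFP and 36.0, 35.6, 50.7 and 46.7 CPM in AAV-GSTA4 (0.01 ± 0.26, edgeR adjusted p = 0.995). In each of the constitutive genes AAV-GFP replicate 3 was the lowest of the 7 libraries.

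Set within each library, where scaling between libraries cancels, the ratios of Psmb8 and Psmb9 to their constitutive counterparts were low in AAV-GSTA4. For each 100 counts of Psmb5 there were 35.0, 37.7 and 41.0 counts of Psmb8 in AAV-GFP and 10.1, 17.7, 9.13 and 28.3 in AAV-GSTA4. For each 100 counts of Psmb6 there were 2.65, 3.46 and 4.13 counts of Psmb9 in AAV-GFP and 1.48, 1.88, 0.697 and 1.88 in AAV-GSTA4. In both pairs every AAV-GSTA4 library lay below every AAV-GFP library. A ratio also moves with its denominator: the CPM of Psmb9 alone overlapped, and Psmb6 was lowest in AAV-GFP replicate 3, at 213 CPM. How often other pairs of genes are apart in this way was not measured. For each 100 counts of Psmb7 there were 59.9, 56.5 and 53.1 counts of Psmb10 in AAV-GFP and 52.5, 51.5, 50.4 and 60.5 in AAV-GSTA4, which overlapped. AAV-GFP replicate 3, low in most proteasome genes, had the highest ratio of the 7 libraries for Psmb8 and Psmb9, and AAV-GSTA4 replicate 3, with little transgene, the lowest.

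**Figure D2:**
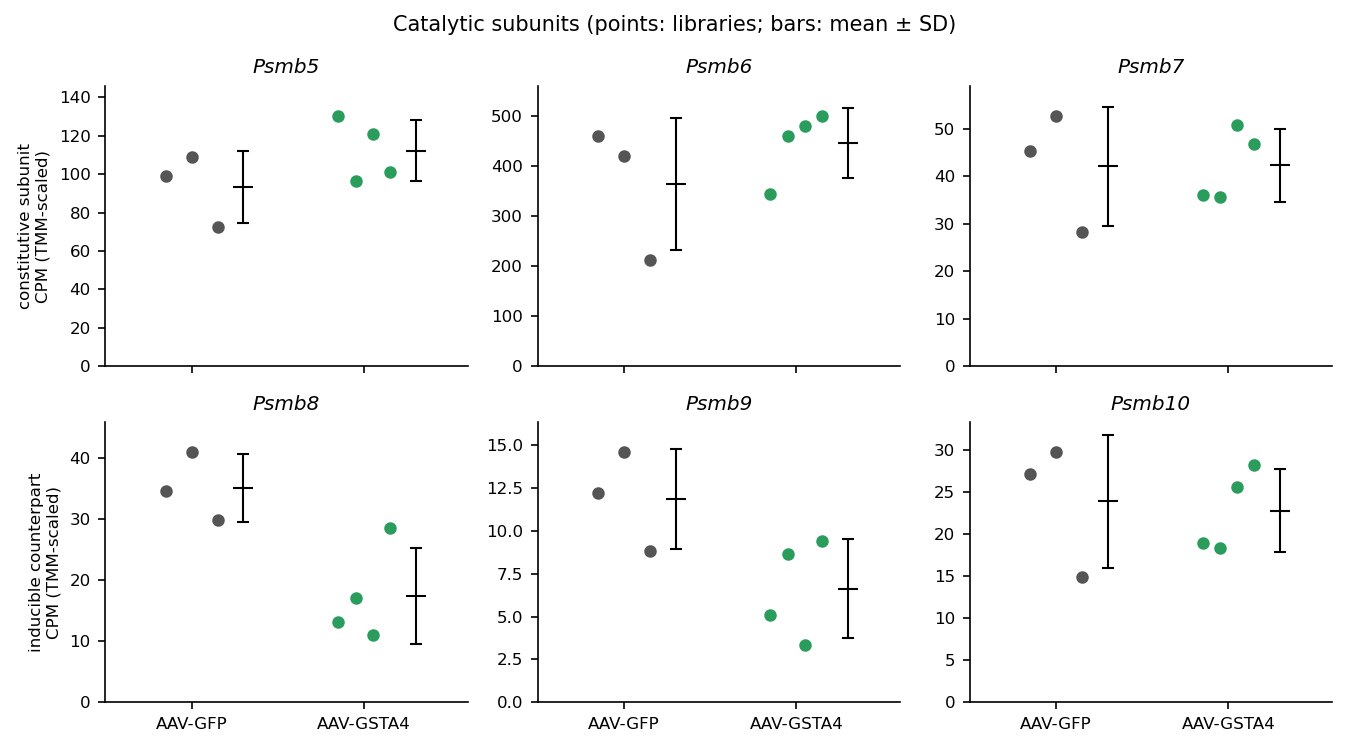
Scaled CPM (y axis, from 0, its own range in each panel) of the constitutive catalytic subunits (top row) and their inducible counterparts (bottom row); points are libraries in order of replicate number, bars the mean ± SD of 3 AAV-GFP and 4 AAV-GSTA4 libraries. Of these 6 genes, groups are apart for Psmb8, with 29.8 CPM as the lowest AAV-GFP and 28.6 CPM as the highest AAV-GSTA4 library.

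Psmb8 was lower in AAV-GSTA4 under 17 of 17 alternative settings, at an unadjusted p under 0.05 in 16. Its log2 fold change ran from -1.70 to -0.83, with edgeR, DESeq2 or limma adjusted p-values from 0.110 to 0.848. Without AAV-GFP replicate 2 the unadjusted p by edgeR was 0.0536. Its groups did not overlap in any of the 17, but this count carries little weight. Changing the test, block or covariate leaves the scaled CPM as they were, and leaving out a library can hardly join groups already apart. Immunoproteasome subunits are also abundant in white blood cells. Of 10 macrophage and microglia markers 9 were lower in AAV-GSTA4 and 1, Csf1r, was higher. Groups did not overlap for 2 lower markers, Aif1 and C1qc (5.61% of all genes lower), and for 1 higher, Csf1r (6.44% of all genes higher). The summed markers were at 478 to 876 CPM in AAV-GFP and 673 to 934 CPM in AAV-GSTA4, with no marker at 0. Csf1r made up much of that sum, at 258, 239.5 and 127 CPM in AAV-GFP and 520.1, 290.5, 568 and 421 CPM in AAV-GSTA4. The other 9 markers summed to 425, 636 and 351 CPM in AAV-GFP and to 287, 382, 367 and 339.7 CPM in AAV-GSTA4, which overlapped. With the summed 10 markers, Csf1r included, as a covariate Psmb8 was at -1.01, as without it, and with the rod markers as a covariate at -1.70. The summed 10 markers were not lower in AAV-GSTA4 (means of 679 CPM in AAV-GFP and 794 CPM in AAV-GSTA4). The fit with them therefore cannot tell what white blood cells contribute. The 4 tested of 5 T cell markers summed to 2.26 to 9.08 CPM per library, and Cd2 and the untested Cd3e were each at 0 counts in 1 library. Beyond these values, the part of white blood cells in the Psmb8 result was not tested. Keratin markers of the ocular surface epithelium were lower in 4 of 4 genes, with groups that overlapped in each and none at 0. They summed to 549, 612 and 469.5 CPM in AAV-GFP and 54.9, 507, 60.8 and 611 CPM in AAV-GSTA4. Psmb8 and Psmb9 were lowest in the same libraries, AAV-GSTA4 replicates 1 and 3, in which these keratins were lowest, and the part of that epithelium in their values was not tested.

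The partners of the immunoproteasome in antigen presentation, which interferon induces with it, gave no common direction. Of 10 tested genes 5 were higher and 5 lower, none at an unadjusted p under 0.05 in edgeR. Without AAV-GFP replicate 3 there were again 5 higher and 5 lower. At an unadjusted p under 0.05 in edgeR 3 were then lower (5.74% of all genes lower) and 1 higher (6.76% of all genes higher). Groups did not overlap for 3 lower (11.9% of all genes lower) and 2 higher genes (12.7% of all genes higher), and none passed the adjusted threshold. Tap1, which pumps peptides into the endoplasmic reticulum and whose start lies 226 bp from that of Psmb9, was at 7.97, 10.7 and 8.21 CPM in AAV-GFP and 10.7, 11.9, 9.93 and 13.4 CPM in AAV-GSTA4 (0.36 ± 0.28). B2m, the light chain of MHC class I, was at 747, 716 and 179 CPM in AAV-GFP and 368, 379, 534 and 353 CPM in AAV-GSTA4 (-0.42 ± 0.44). Irf1, an interferon-induced activator of Psmb8 and Psmb9, was at 69.8, 35.1 and 32.0 CPM in AAV-GFP and 23.0, 36.8, 11.3 and 48.1 CPM in AAV-GSTA4 (-0.61 ± 0.46). Tap1 and Psmb9 share 212 bp of exon on opposite strands, and with a kit that does not mark strand those reads cannot be told apart.

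The promoter of Psmb8, the subunit with the lowest fold change, is printed beside that of Psmb5, its constitutive counterpart, which holds a different motif. Each is the 250 bases before the start given in the RefSeq promoter table on build GRCm38.p6, 5′ to 3′ on the gene's strand. Psmb8 is at chr17:34197945-34198194 (+) and Psmb5 at chr14:54617996-54618245 (-). Capitals mark, in Psmb8, a match to TTCNNNGAA, the gamma-activated site of interferon-responsive genes, and in Psmb5 a match to TGACNNNGC, the antioxidant response element bound by NRF1 and NRF2, the products of Nfe2l1 and Nfe2l2.
Psmb8: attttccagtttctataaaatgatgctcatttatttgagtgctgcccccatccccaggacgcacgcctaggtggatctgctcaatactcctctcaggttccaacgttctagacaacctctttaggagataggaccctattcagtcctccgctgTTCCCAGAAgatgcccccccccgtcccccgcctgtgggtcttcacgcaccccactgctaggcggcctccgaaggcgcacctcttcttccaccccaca
Psmb5: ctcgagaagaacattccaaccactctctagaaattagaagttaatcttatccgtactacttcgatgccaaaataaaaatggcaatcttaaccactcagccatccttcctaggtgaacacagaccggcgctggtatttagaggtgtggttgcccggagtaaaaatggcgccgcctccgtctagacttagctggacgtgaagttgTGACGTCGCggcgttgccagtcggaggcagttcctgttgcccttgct
The Psmb8 match lies 97 to 89 bases before the start and the Psmb5 match 47 to 39. Motifs were searched on both strands, with no overlap between the matches of different motifs in these genes. TTCNNNGAA was in 2 of the 42 promoters of proteasome genes in the table (Psmb8 and Psmg1, 4.76%) and in 7.18% of 27025 promoters of the same length. GAAANNGAAA, the interferon-stimulated response element, was in 3 (Psmb3, Psmd4 and Psmd9, 7.14%) and in 3.04% of all. TGACNNNGC was in 5 (Psmb5, Psmb6, Psmc6, Psmd12 and Psmd9, 11.9%) and in 10.1% of all. A match describes the letters and is neither a bound site nor a cause.

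The tissue-restricted core subunits had few counts in most libraries, beside a detection limit that a count of 0 sets at 3 counts. Psma8, an alpha subunit of the testis, had 17, 14 and 4 counts in AAV-GFP and 0, 2, 26 and 7 in AAV-GSTA4. Psmb11, a beta subunit of thymic cortical epithelium whose start lies 7315 bp from that of Psmb5, had 0, 0 and 108 counts in AAV-GFP and 0, 4, 0 and 7 in AAV-GSTA4. The 108 counts of Psmb11 in AAV-GFP replicate 3 stand against at most 7 in any other library.

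Levels per kilobase of exon showed the make-up of the core. Among the 14 constitutive subunits the highest mean over the 7 libraries was that of Psmb6 (516 CPM per kb) and the lowest that of Psmb7 (36.3), a 14.2-fold range for proteins that enter the particle in equal number. Psmb2 (317) and Psmb3 (280.0), structural beta subunits without a peptidase site, came next, ahead of the alpha subunits Psma7 (233) and Psma1 (186). Neighbours in the order of the constitutive subunits overlapped in their ranges over libraries. The inducible subunits Psmb10 (17.8), Psmb8 (15.4) and Psmb9 (6.56) were below all constitutive ones in mean level. Exon length is the union over transcripts, so a gene with a long rarely used exon reads low on this scale. In the cap Psmc5 (208) was highest and, of the proteasome genes proper, Psmd9 (12.7) lowest; in the third part Psme2 (109.6) was highest and Psme4 (3.61) lowest.

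**Figure D3:**
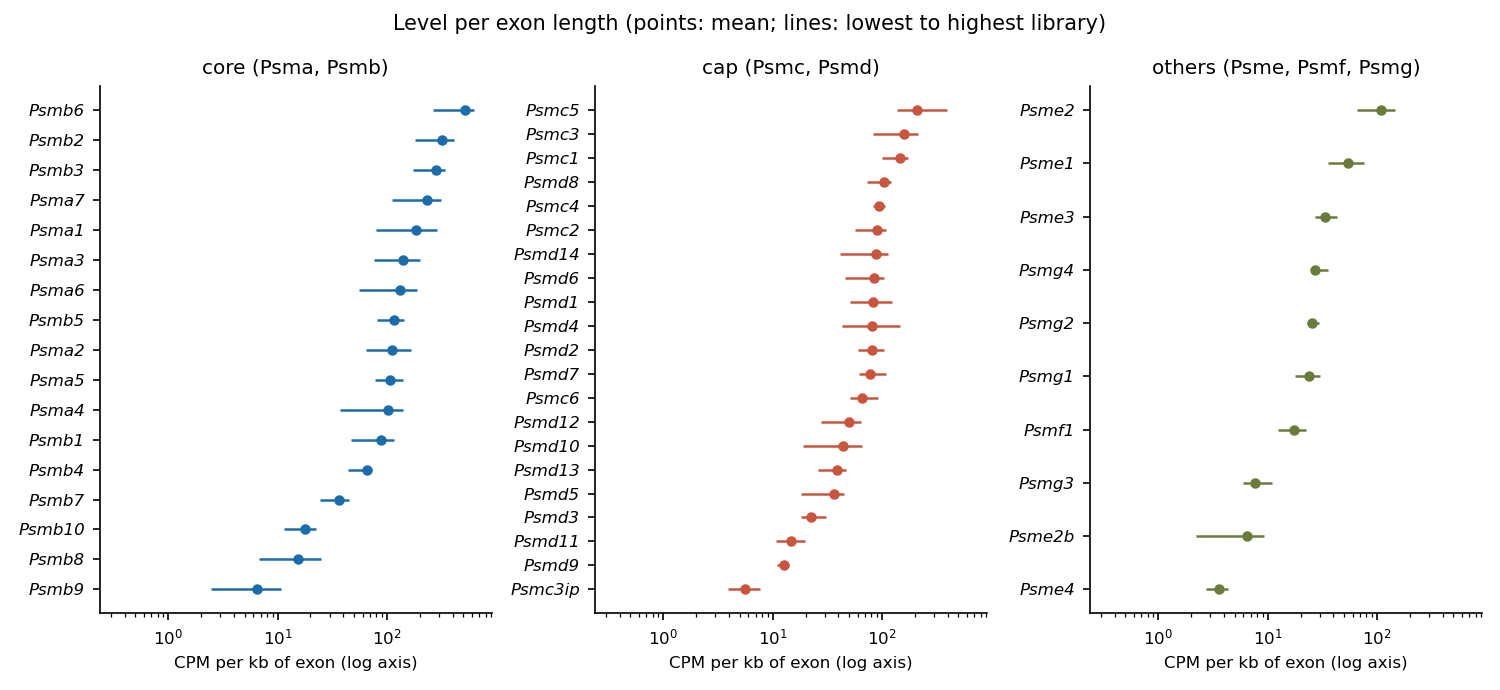
CPM per kb of union exon length (x axis, logarithmic) by gene and part; points are means over the 7 libraries and lines run from the lowest to the highest library. Psma8 and Psmb11, at 0 in some library, are left out; Psmb6 (516) leads and Psmb8 (15.4) and Psmb9 (6.56) close the core.

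For each of the remaining core subunits the groups overlapped. Their log2 fold changes ran from -0.19 for Psma2 to 0.33 for Psma7, both alpha-ring subunits. Psma2 was at 484, 373 and 187 CPM in AAV-GFP and 219, 297, 344 and 359.6 CPM in AAV-GSTA4. Psma7 was at 306, 280.3 and 132 CPM in AAV-GFP and 228, 283, 324 and 368 CPM in AAV-GSTA4. In both genes AAV-GFP replicate 3 was lowest, below all AAV-GSTA4 libraries. AAV-GFP replicate 3 was the lowest of the 7 libraries for 14 of 14 constitutive core genes, for 15 of 21 cap genes and for 32 of 49 proteasome genes (65.3%), against 29.4% of all genes. Summed core levels were 3963, 3389 and 1704 CPM in AAV-GFP and 2571, 3021, 3478 and 3662 CPM in AAV-GSTA4, so that AAV-GFP held both the highest and the lowest library. The SD of log2 CPM over the 7 libraries had a median of 0.45 for core genes, 0.35 for cap genes and 0.26 for the others, against 0.53 for all genes.

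**Figure D4:**
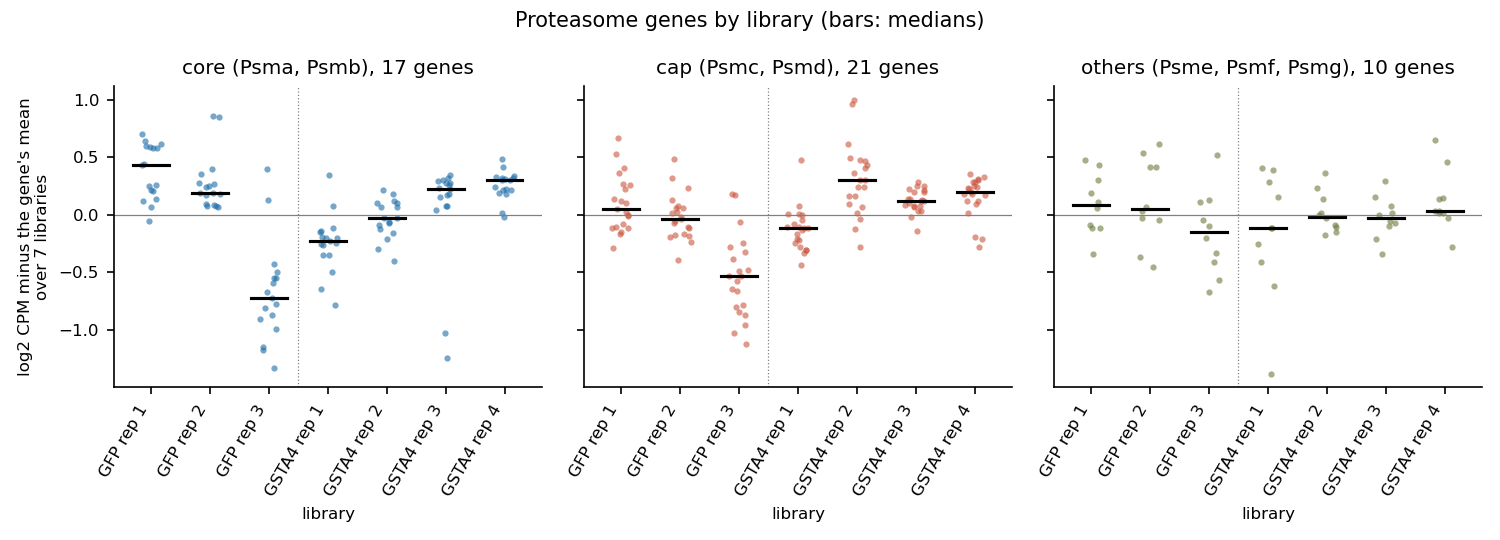
Log2 CPM of each gene minus its mean over the 7 libraries (y axis), by library and part; points are genes, bars medians, and the core panel shows 17 genes, without Psma8 and Psmb11. The 14 constitutive core genes are lowest in AAV-GFP replicate 3, and the median of cap genes is highest in AAV-GSTA4 replicate 2, where the cap summed to 4029 CPM.

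Without AAV-GFP replicate 3 the core changed sign in its median, by less than the spread between libraries. That spread, the SD within groups of the library medians of the core, was 0.42 on the log2 scale. The median log2 fold change of the core was then -0.28, with 3 of 18 genes above 0, while 50.4% of all genes were above 0 with a median of 0.01. The alpha subunits Psma1 to Psma7 had a median of -0.34 with 6 of 7 below 0, and groups did not overlap for 3 of them, Psma2, Psma3 and Psma5, all lower in AAV-GSTA4. The cap kept 15 of 21 genes above 0, with a median of 0.13. At an unadjusted p under 0.05 there were 4 lower genes, Psmb8, Psmb9, Psmc6 and Psme1 (5.74% of all genes lower), and 0 higher (6.76% of all genes higher), and none passed the adjusted threshold in edgeR. Groups did not overlap for 7 lower genes (14.3%, against 11.9% of all genes) and 3 higher (6.12%, against 12.7%). Psmb8 was at -1.11 and Psmb9 at -1.01 without this library. Rod marker levels moved with both this library and the groups. With the rod markers as a covariate in the fit of all 7 libraries, 9 proteasome genes were lower at an unadjusted p under 0.05 (5.78% of all genes lower), 0 were higher (3.45% of all genes higher), and the core median was -0.70. The core median depended on other choices too: it was 0.31 without AAV-GFP replicate 1, where that of the cap was 0.46, and it was -0.18 with library totals and no scaling, -0.10 with limma-voom and quality weights and -0.20 with the macrophage markers as a covariate. The rod share and the treatment cannot be told apart in these libraries.

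**Figure D5:**
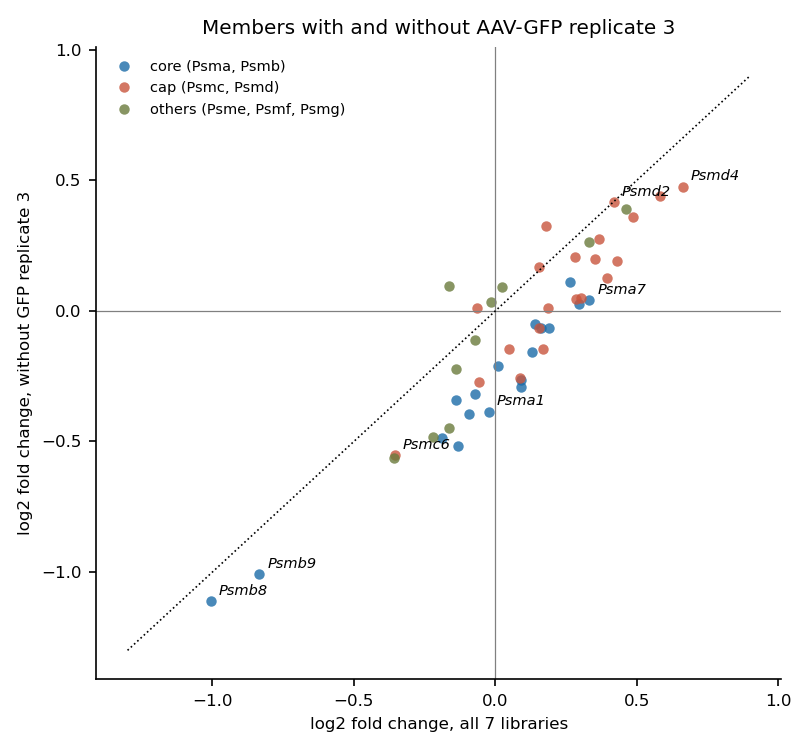
Log2 fold change of each tested gene with all 7 libraries (x axis) and without AAV-GFP replicate 3 (y axis), AAV-GSTA4 over AAV-GFP; the dotted line marks equal values and Psmb11, which was not tested, is not drawn. Core genes lie below the line, with medians of 0.05 and -0.28, while Psmd2 is at 0.42 in both.

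In the cap, the 3 genes whose groups did not overlap were all non-ATPase subunits. Psmd1, a scaffold subunit of the base (chr1:86064619-86139295 on GRCm38.p6, RefSeq), was at 226, 223 and 159 CPM in AAV-GFP and 229.5, 385, 292 and 306 CPM in AAV-GSTA4. AAV-GSTA4 replicate 1 exceeded the highest AAV-GFP library by a few CPM only. The log2 fold change of Psmd1 was 0.58 ± 0.26 (unadjusted p = 0.0489, edgeR adjusted p = 0.416), and its exons share 301 bp with another listed gene, Gm21972, on the same strand. Under the alternatives its unadjusted p was under 0.05 in 4 of 17. Psmd2, the other large scaffold subunit and a docking site for ubiquitin shuttles (chr16:20651122-20663414), was at 222, 179 and 198 CPM in AAV-GFP and 235, 311, 254 and 266 CPM in AAV-GSTA4 (0.42 ± 0.22, edgeR adjusted p = 0.469). Psmd4, a ubiquitin receptor of the cap (chr3:95032688-95042614), was at 124, 129.6 and 79.8 CPM in AAV-GFP and 132, 272, 142 and 157 CPM in AAV-GSTA4 (0.66 ± 0.31, edgeR adjusted p = 0.436). Its value rested in part on AAV-GSTA4 replicate 2, the library with lens marker RNA, without which it was 0.38. Without AAV-GFP replicate 3 the log2 fold changes of Psmd1, Psmd2 and Psmd4 were 0.44, 0.42 and 0.48. With the rod markers as a covariate they were 0.27, 0.31 and 0.38, and the cap median was -0.08. With library totals and no scaling the groups overlapped for Psmd1, Psmd2 and Psmd4, and the 3 proteasome genes with groups apart were then Psmb8, Psmb9 and Psmc6, all lower in AAV-GSTA4 (14% of all genes apart in either direction).

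Psmd14, the deubiquitinase that strips the ubiquitin chain from the substrate, was at 174, 143 and 64.0 CPM in AAV-GFP and 138, 139, 150.4 and 142 CPM in AAV-GSTA4 (0.17 ± 0.31, edgeR adjusted p = 0.855). The 4 AAV-GSTA4 libraries lay close together, between the extremes of AAV-GFP. Among the ATPases, the motor of the cap, Psmc5 was at 239, 249 and 179 CPM in AAV-GFP and 218, 518, 234 and 277 CPM in AAV-GSTA4 (0.49 ± 0.34). Its level in AAV-GSTA4 replicate 2, the library with the lens markers, was 1.87 times that of the next library. Psmc6 had the lowest fold change of the cap: it was at 205, 178 and 117 CPM in AAV-GFP and 113, 149.8, 141 and 118 CPM in AAV-GSTA4 (-0.36 ± 0.25, edgeR adjusted p = 0.576), with AAV-GFP replicate 3 among the low libraries. Psmc4, another ATPase, was among the steadiest of the 49, from 119.6 to 152 CPM over the 7 libraries. For each 100 counts of all cap genes there were 123, 114 and 83.5 counts of all core genes in AAV-GFP and 94.0, 75.0, 108 and 107 in AAV-GSTA4, with overlap between the groups.

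Among the activators and the inhibitor no gene had groups apart. Psme1 and Psme2 are interferon-induced and form 1 ring that opens the core. Psme1 was at 71.8, 84.6 and 39.4 CPM in AAV-GFP and 53.9, 55.0, 50.6 and 64.4 CPM in AAV-GSTA4 (-0.22 ± 0.27, edgeR adjusted p = 0.765). Psme2 was at 142, 136 and 64.0 CPM in AAV-GFP and 66.5, 103, 97.1 and 140.2 CPM in AAV-GSTA4 (-0.16 ± 0.33, edgeR adjusted p = 0.872). Groups overlapped for both. Both were lowest, among all 7 libraries, in AAV-GFP replicate 3. Psme3, a nuclear activator, was at 82.5, 85.0 and 95.6 CPM in AAV-GFP and 115, 77.6, 92.3 and 72.2 CPM in AAV-GSTA4 (0.02 ± 0.22), and among the AAV-GFP libraries was highest in replicate 3. Psme4, a large activator linked to acetylated histones, was at 25.0, 17.9 and 18.3 CPM in AAV-GFP and 28.1, 25.4, 25.8 and 23.4 CPM in AAV-GSTA4 (0.33 ± 0.23). Psmf1, which binds the core and inhibits it in the test tube, was at 70.4, 49.4 and 50.8 CPM in AAV-GFP and 89.6, 66.2, 82.9 and 74.5 CPM in AAV-GSTA4 (0.46 ± 0.22, unadjusted p = 0.0606, edgeR adjusted p = 0.434). Of the third part Psmf1 had the highest fold change, with 3 of 4 AAV-GSTA4 libraries above all of AAV-GFP.

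The assembly chaperones, which are not part of the finished particle, had overlapping groups throughout. Psmg1 and Psmg2 pair to start the alpha ring. Psmg1 was at 22.7, 25.8 and 26.6 CPM in AAV-GFP and 18.5, 31.7, 23.7 and 25.2 CPM in AAV-GSTA4 (-0.01 ± 0.24). Psmg2 was at 38.1, 32.8 and 32.3 CPM in AAV-GFP and 37.0, 30.1, 31.1 and 32.7 CPM in AAV-GSTA4 (-0.07 ± 0.20). Psmg3 and Psmg4 form a second such pair, which acts on the same ring. Psmg3 was at 5.27, 6.83 and 9.60 CPM in AAV-GFP and 5.58, 6.67, 6.76 and 6.83 CPM in AAV-GSTA4 (-0.16 ± 0.34). Psmg4 was at 13.8, 19.96 and 14.02 CPM in AAV-GFP and 13.8, 13.9, 14.99 and 15.1 CPM in AAV-GSTA4 (-0.14 ± 0.25). The 4 Psmg genes had fold changes within their errors, and AAV-GFP replicate 3 was the lowest library for none of them. Psmd5, Psmd9 and Psmd10 escort the ATPases into their ring. Psmd5 was at 199, 131 and 79.5 CPM in AAV-GFP and 154, 199, 184 and 181 CPM in AAV-GSTA4 (0.39 ± 0.30), with AAV-GFP replicate 3 lowest. Psmd10 was at 97.5, 62.4 and 28.1 CPM in AAV-GFP and 52.7, 75.8, 67.5 and 70.4 CPM in AAV-GSTA4 (0.09 ± 0.36), with the highest and the lowest library both in AAV-GFP. Psmd9 was at 35.6, 28.6 and 37.0 CPM in AAV-GFP and 32.8, 31.9, 35.6 and 28.7 CPM in AAV-GSTA4 (-0.07 ± 0.20), the smallest spread of these 3.

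Outside the name pattern, 31 other genes of the ubiquitin-proteasome pathway were tested, of which 19 were higher and 12 lower in AAV-GSTA4. None passed the adjusted threshold in edgeR, and 2 of the 31 had an unadjusted p under 0.05, both higher (5.27% of all genes higher). Groups did not overlap for 22.6% of them, against the 12% of all genes. Nfe2l1, the transcription factor that raises proteasome genes when activity falls short, was at 147, 101 and 126 CPM in AAV-GFP and 241, 183, 204 and 202 CPM in AAV-GSTA4 (0.73 ± 0.22, unadjusted p = 0.00892, edgeR adjusted p = 0.363). Vcp, the unfoldase that extracts ubiquitin-tagged proteins ahead of the proteasome, was at 319, 345 and 336 CPM in AAV-GFP and 486, 428, 518 and 467 CPM in AAV-GSTA4 (0.51 ± 0.22, edgeR adjusted p = 0.402). In both genes every AAV-GSTA4 library lay above every AAV-GFP library. The same held for Adrm1, a ubiquitin receptor of the cap (0.43 ± 0.19), Ecpas, a proteasome scaffold (0.19 ± 0.18), Fbxo7, a ubiquitin ligase adaptor that binds Psmf1 (0.47 ± 0.21) and Ufd1, a partner of Vcp (0.29 ± 0.21). This depended on the scaling: with library totals and no scaling the groups overlapped for all 6 of these higher genes. Nfe2l1, for instance, had 2623 of 15329181 counts in AAV-GFP replicate 3, whose TMM factor was 1.36, and 3816 of 23066810 in AAV-GSTA4 replicate 2. Usp14, a deubiquitinase bound to the cap, was the 1 gene of the list that lay lower without overlap, at 128, 91.8 and 89.0 CPM in AAV-GFP and 71.8, 73.9, 87.3 and 83.0 CPM in AAV-GSTA4 (-0.38 ± 0.21). Pomp, the maturation factor of the core, was at 271, 216 and 114 CPM in AAV-GFP and 148, 164, 180.3 and 224 CPM in AAV-GSTA4 (-0.16 ± 0.31), with AAV-GFP replicate 3 lowest as in the core genes.

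Exons of 10 proteasome genes overlap those of another listed gene, 7 of them on the opposite strand, and reads from such stretches cannot be told apart here. The longest such overlap was 405 bp, between Psmb7 and Nek6.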

How the data were processed

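The deposited values are raw counts per gene, which the authors made, per the submitters' processing notes, with STAR 2.7.1a and featureCounts 1.6.2; the notes list mouse and human genome builds without roles. Annotation, strand setting and treatment of multiply mapped reads are not given in the sources used here. Per the labels, cDNA was amplified by SMART-Seq and fragmented with Nextera XT, without molecular identifiers, so counting error is a lower limit.

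Genes were kept by edgeR's filterByExpr. Counts were scaled by trimmed mean of M-values (TMM) factors of 0.868 to 1.36 and fitted with edgeR 4.0.16 (R 4.3.3, robust quasi-likelihood F test, group as the only term, all 7 libraries in 1 fit). P-values were adjusted by Benjamini-Hochberg over all 15075 genes, with a threshold of 0.05. The biological coefficient of variation was 48.2%. CPM are TMM-scaled; log2 CPM used a prior count of 2. SE is the fold change divided by the root of F. The fit was tested on simulated data. DESeq2 1.42.0 and limma-voom 3.58.1 were alternatives, beside other scalings, filters, replicate blocks, a rod marker covariate and leaving out each library (16 in all); the macrophage marker covariate was added after seeing the data.

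Per-library values are given for catalytic, tissue-restricted, activator, inhibitor and chaperone genes, for Psmd4 and Psmd14, and for genes with an unadjusted p under 0.05 or groups that do not overlap. Other genes appear by counts, or as the extremes of a part. Psmc4, and the values of Psmc5, were singled out after seeing them. The genes and lists were chosen with earlier results of these data known. The values of 1 gene of the antigen presentation list are not reported here. All pairs of libraries differed beyond sampling noise (smallest chi-square per gene 57.5). Promoters are from a RefSeq table (GRCm38.p6) holding 42 of the 50 genes; exon lengths are from GENCODE on GRCm38.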

Additional observations from a re-analysis of the deposited data

Results flagged for a closer look

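In the AAV-GSTA4 group 2 of the 50 genes examined had 1 library far from the other 3, with a gap, as a share of the group's range, above Dixon's critical value for 4 values, which chance passes in about 5% of groups. Psma8, the testis alpha subunit, was at 1.53 CPM in AAV-GSTA4 replicate 3, from 26 counts, against 0, 0.0960 and 0.258 CPM in the others. Psmg3, an alpha-ring chaperone, was at 5.58 CPM in AAV-GSTA4 replicate 1, below 6.67, 6.76 and 6.83 CPM in the others, which lie close together.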

How the results depend on the processing

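No proteasome gene passed the adjusted threshold under any of the 17 alternatives. Of 389 fold changes of single named genes, 332 kept their direction and 57 did not. The cause of these moves was not tested. With median-of-ratios size factors the fold change had the opposite sign for Psmg1 0.0073. With library totals and no scaling there were 3 genes lower at an unadjusted p under 0.05, 0 higher at that p, a cap median of -0.012 and a median of -0.38 for the others, and the fold change had the opposite sign for Psmb5 -0.0067, Psmb7 -0.25, Psme3 -0.29, Psmd10 -0.13 and Psmd14 -0.060. With no filter there were 0 genes higher at an unadjusted p under 0.05, and the fold change had the opposite sign for Psmg1 0.014. With at least 10 counts in every library there were 0 genes higher at an unadjusted p under 0.05 and 2 without overlap, and the fold change had the opposite sign for Psmb7 -4e-04. With DESeq2 there were 3 genes higher at an unadjusted p under 0.05, and the fold change had the opposite sign for Psmg1 0.0073. With limma-voom and quality weights there were 4 genes lower at an unadjusted p under 0.05 and 3 higher at that p, and the fold change had the opposite sign for Psmb7 -0.13, Psme3 -0.031, Psmg3 0.035, Psmd9 0.017, Psmd10 -0.010 and Psmd14 -0.012. With a replicate block by the number in the title there were 2 genes lower at an unadjusted p under 0.05 and 0 higher at that p, and the fold change had the opposite sign for Psmb7 -0.022. With a replicate block by the number in the library name there were 0 genes higher at an unadjusted p under 0.05, and the fold change had the opposite sign for Psmb10 0.056. With the rod marker covariate there were 9 genes lower at an unadjusted p under 0.05, 0 higher at that p, a core median of -0.70 and a cap median of -0.076, and the fold change had the opposite sign for Psmb6 -0.36, Psmb7 -0.42, Psmg1 0.049, Psmg3 0.27, Psmd5 -0.25, Psmd9 0.049, Psmd10 -0.78 and Psmd14 -0.48. With the macrophage marker covariate there were 0 genes higher at an unadjusted p under 0.05, and the fold change had the opposite sign for Psmb7 -0.22, Psmg1 0.053, Psmd10 -0.074 and Psmd14 -0.044. The library-total scaling moved the median of all genes to -0.37. Over all 15075 genes, those lower and higher at an unadjusted p under 0.05 were 2133 and 267 with library totals. They were 1170 and 999 with DESeq2, 1713 and 1564 with limma-voom, 557 and 292 with the title block and 872 and 520 with the rod covariate. Higher genes were 564 with the library-name block and 555 with the macrophage covariate. They were 858 of 19859 with no filter and 764 of 12809 with at least 10 counts, where 13.7% were without overlap. Same-numbered libraries correlated at -0.089 to 0.015 apart from 1 pair at -0.13. The pair numbered 3 in the library names, at 0.015, was the best match in both directions. So few correlations cannot say whether the numbers mark a shared batch or litter. With the blocks Psmb8 was at -1.36 and -1.12. Leaving out 1 library at a time gave 0 to 4 genes lower at an unadjusted p under 0.05, 0 to 3 genes higher at that p, 4 to 11 genes without overlap and -0.13 to 0.010 for the median of the Psme, Psmf and Psmg genes. Of the 14785 to 15599 genes tested in these fits, 551 to 1135 were lower and 481 to 1037 higher at that p. Over all genes 14.5% to 24.6% were without overlap in these fits. The most proteasome genes without overlap, 11 of 49, came without AAV-GSTA4 replicate 1, where 19.9% of all genes were, the most lower genes without AAV-GFP replicate 3. Fold changes over these fits ran from -0.21 to 0.21 for Psmb7, -0.32 to 0.12 for Psmb10, -0.48 to 0.013 for Psme1, -0.45 to 0.025 for Psme2, -0.098 to 0.14 for Psme3, -0.14 to 0.12 for Psmg1, -0.12 to 0.014 for Psmg2, -0.34 to 0.093 for Psmg3, -0.23 to 0.062 for Psmg4, -0.17 to 0.013 for Psmd9, -0.26 to 0.56 for Psmd10, -0.15 to 0.46 for Psmd14 and -0.52 to 0.33 for Psma8. The median SE over the proteasome genes was 0.29 on the log2 scale.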
